A study of Rattus norvegicus with 12 samples.

Results

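The genes described here make, break down, regenerate and use glutathione. They were chosen by name: every entry beginning with Gst or Mgst, except Gstcd, every numbered Gpx, and Gclc, Gclm, Gss, Gsr, Ggt1, Ggt5, Ggt6, Ggt7, Ggct, Oplah, Dpep1, Anpep, Glo1 and Hagh. In all, 48 such genes were listed, 43 among the 22132 entries of the table for the adenine experiment and 46 among the 32623 entries of the table for the obstruction experiment, with 41 in both. Ggt5 was in neither table. The rule uses names only, but it was set with earlier results of these data known.

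Kidney RNA was sequenced from 12 male wild-type Sprague Dawley rats, 3 in each of 4 groups, all 8 weeks old when bought and acclimatized for 7 days. The adenine group received adenine by gavage every day for 3 weeks, and the control group received saline in the same way. The UUO group had its left ureter tied off (unilateral ureteral obstruction) and was examined 2 weeks after surgery, and the sham group had the surgery without the ligation. Both treatments were used as models of renal fibrosis, and the comparisons ask how the kidney differs from its own reference group in each. Levels are given as FPKM, the fragments of a gene normalized for its length and for the depth of the library, as the authors deposited them. Only FPKM values were used here, so the number of reads behind a value is unknown, and the 2 tables were normalized separately.

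Glutathione is a tripeptide of glutamate, cysteine and glycine, and it is the most abundant small thiol of animal cells. Glutamate-cysteine ligase, made of the catalytic subunit Gclc and the modifier subunit Gclm, carries out the first and rate-limiting step of its synthesis, and Gss adds the glycine. The kidney takes part in its turnover, because Ggt1 on the brush border of the proximal tubule splits glutathione in the filtrate so that its amino acids can be taken up again. Glutathione S-transferases join glutathione to reactive compounds, glutathione peroxidases use it to reduce peroxides, and Gsr reduces the oxidized form back.

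Several of these genes are textbook targets of the transcription factor Nfe2l2, which binds the antioxidant response element, so the letters of its core, TGACNNNGC, were searched on both strands in the RefSeq promoters of build GRCr8, which run from 250 bases before to 50 bases after each gene start. Of the 40 members with a promoter in that set, 9 held the core (22.5%), against 12.1% of all promoters and 13.1% of all symbols. The 9 were Gclm, Gpx2, Gsta1, Gsta2, Gsta3, Gstm5, Gstm7, Gstp1 and Gstz1. The stretches of 6 of them are shown because they come from genes that moved in different ways in the kidneys: Gpx2 rose in both models, Gclm, Gsta1, Gsta3 and Gstz1 fell in both, and Gstp1 fell in the UUO model. Each reads 5′ to 3′ on the strand of its gene, with the core in capitals.
Gclm, chr2:213031952-213031982, plus strand, core starting 172 bases before the gene start: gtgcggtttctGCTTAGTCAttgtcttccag
Gpx2, chr6:101230027-101230057, minus strand, 13 bases before: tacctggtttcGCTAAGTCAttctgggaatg
Gstp1, chr1:210769747-210769777, minus strand, 61 bases before: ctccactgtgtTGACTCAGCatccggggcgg
Gstz1, chr6:112525364-112525394, plus strand, 231 bases before: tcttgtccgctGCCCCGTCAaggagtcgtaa
Gsta1, chr9:31216483-31216513, minus strand, at base 31 of the transcript: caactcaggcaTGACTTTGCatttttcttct
Gsta3, chr9:31154961-31154991, plus strand, 17 bases before: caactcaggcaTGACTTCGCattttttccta
In Gclm, Gpx2 and Gstz1 the core lay on the opposite strand and is therefore printed as its reverse complement. The lines for Gsta1 and Gsta3, which follow each other among the members on chromosome 9, open with the same bases. RefSeq lists older names shared among the alpha genes, so the Gsta1 and Gsta3 stretches may not belong to the genes measured under those symbols. A match of these letters is a description and does not show that the factor binds there.

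The libraries differed in markers of several cell types, and the part of those cells in the results below was not tested. The summed FPKM of 10 proximal tubule marker genes was 2326 to 4060 in control and 488 to 1065 in adenine kidneys, and 3704 to 4438 in sham and 333 to 641 in UUO kidneys, and of the 10, 5 fell after adenine and 7 after UUO, while Slc5a12 rose after adenine. Macrophage and neutrophil markers (7 of 7 rose in both models) went from 15.9 to 19.2 up to 479 to 779 and from 16.4 to 25.4 up to 186 to 236, and fibroblast and smooth muscle markers (6 of 7 rose in both) from 86.1 to 120 up to 560 to 755 and from 80.8 to 116 up to 1079 to 2295. Itgam and S100a8 met the filter on low values described below only with the diseased rats of either experiment. So did S100a9 with the UUO rats and Slc5a12 with the adenine rats, and these calls are a description. Urothelial markers summed to 1.07 to 3.89 in adenine kidneys and to 72.0 to 145 in UUO kidneys. Control rat 2 differed from the other 2 controls, with a podocyte marker sum of 31.2 against 143 and 199 and an injured tubule marker sum of 628 against 88.5 and 99.9. Spp1 alone made up 552 of that 628, and sham rats 1 and 2 had injured tubule sums of 436 and 412. The median over all genes tested was 0.30 on the log2 scale for adenine against control and 0.62 for UUO against sham, and another scaling, median of ratios, brought them to 0.01 and 0.03.

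After a filter on low values, 40 members were tested in each model with limma across all genes, and "rose" and "fell" below mean an adjusted p under 0.05. In the adenine model 21 members fell, 8 rose and 11 did not pass; of all genes tested, 59.4% passed, 19.9% falling and 39.6% rising. In the UUO model 26 fell, 10 rose and 4 did not pass, while 70.5% of all genes passed, 14.4% falling and 56.1% rising. The members had a median of -0.91 against control and of -1.05 against sham on the same scale, while that of all genes was above 0. With median-of-ratios scaling 22 fell and 6 rose in the adenine model, and 27 fell and 8 rose in the UUO model. Together the members made up 2.16% ± 0.04 (SD, n = 3) of all FPKM in control kidneys and 0.925% ± 0.23 in adenine kidneys, and 2.60% ± 0.02 in sham and 0.885% ± 0.06 in UUO kidneys. In neither experiment did the 2 groups overlap for this share, and an exact two-sided permutation test gave p = 0.1 for each, the smallest p that 3 against 3 rats allow. In such bulk tissue, fewer cells of a type and less RNA per cell cannot be told apart.

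A DEG was a gene with an adjusted p under 0.05 and a log2 fold change of at least 2 in size, and 12 members were DEGs downward and 2 upward in the adenine model, against 5.03% and 10.7% of all genes tested. In the UUO model 11 were DEGs downward and 5 upward, against 4.21% and 13.2% of all genes. The split depended on scaling: with each sample rescaled to the same sum it was 9 down and 4 up in the adenine model, and with median of ratios it was 18 down and 3 up in the UUO model. The ranges of the groups did not overlap for 29 of 40 members after adenine and for 36 of 40 after UUO, against 68.0% and 75.7% of all genes.

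**Figure D1:**
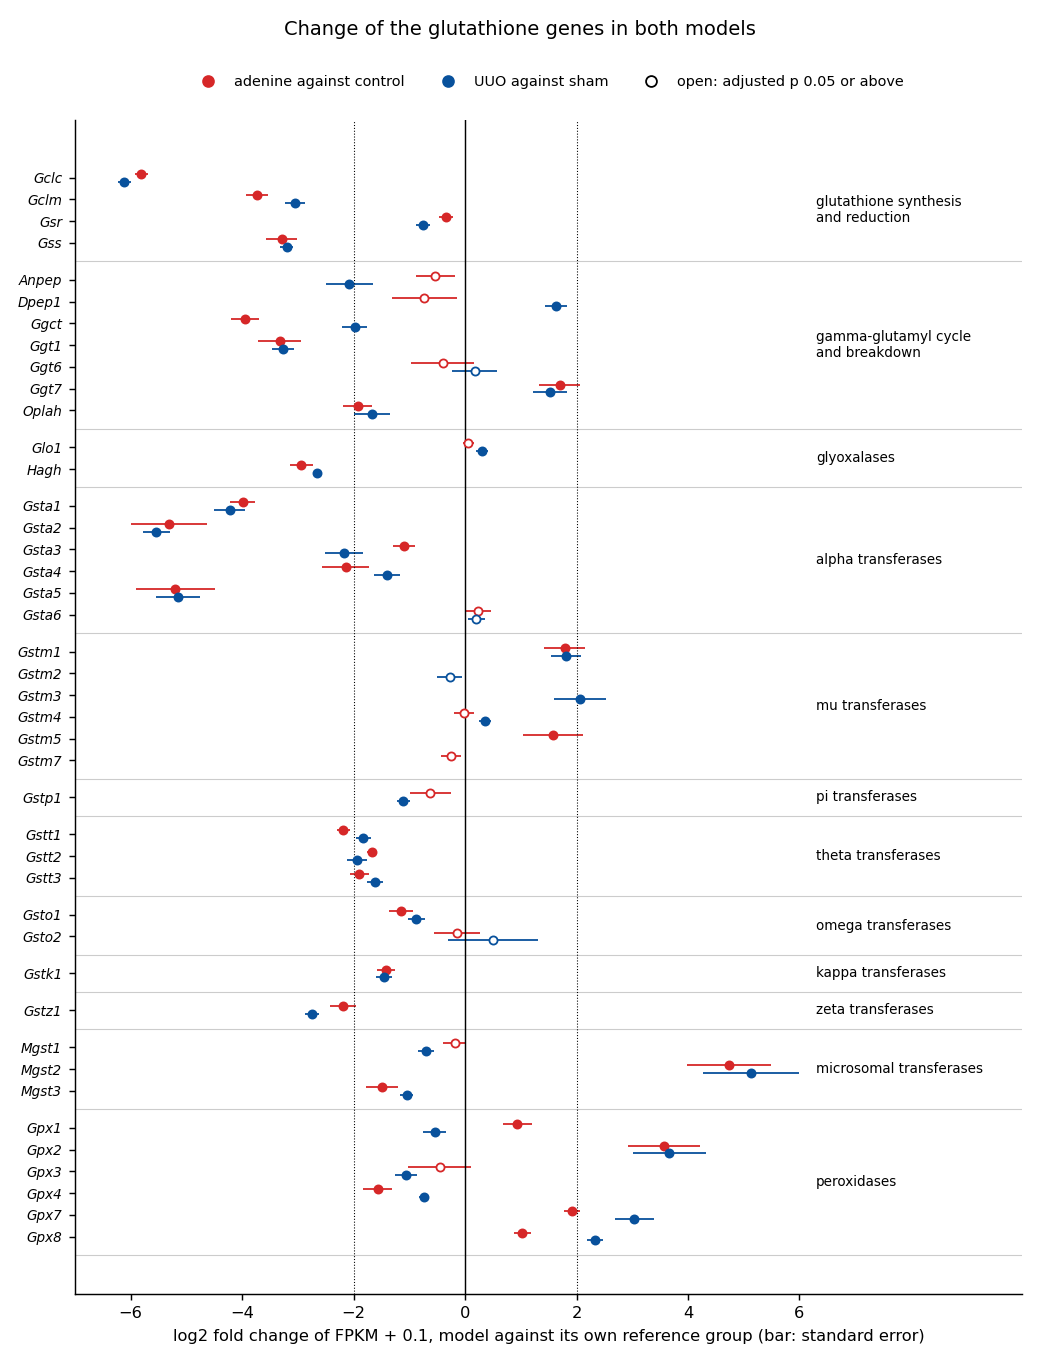
Log2 fold change of FPKM + 0.1 (horizontal axis, bar for the standard error, 3 rats against 3) for each tested glutathione gene, grouped by role, in the adenine model (red) and the UUO model (blue), with filled points for an adjusted p under 0.05 and dotted lines at -2 and 2. Most synthesis, alpha and theta genes sit to the left in both models, down to -6.11 for Gclc, and Mgst2, Gpx2, Gpx7, Gpx8 and Gstm1 to the right, up to 5.13 for Mgst2.

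All 4 genes of synthesis and reduction fell in both models, and Gclc fell furthest of all members. In control kidneys Gclc ranked 27th by mean FPKM among all entries of its table, and in sham kidneys 20th. Its FPKM was 1716, 1744 and 1801 in the 3 control rats and 27.5, 32.1 and 34.0 in the 3 adenine rats, which is 56.2 times lower (log2 fold change -5.81, SE 0.12, adjusted p = 5.95e-06). The sham rats had 2934, 2693 and 2466 and the UUO rats 44.4, 35.4 and 37.1, or 69.2 times lower (-6.11, SE 0.12, adjusted p = 1.86e-06). No diseased kidney came near the range of its reference group, and within each group the rats were close to each other.

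Gclm, the modifier subunit that improves the efficiency of the ligase, fell too, with smaller log2 fold changes than Gclc. It went from 641, 840 and 749 FPKM in control to 46.4, 50.4 and 72.3 in adenine kidneys, 13.2 times lower (log2 fold change -3.74, SE 0.20, adjusted p = 3.54e-05). In the obstruction experiment the sham rats had 876, 604 and 689 and the UUO rats 71.0, 94.4 and 96.3, 8.29 times lower (-3.05, SE 0.18, adjusted p = 2.61e-05). The ratio of Gclc to Gclm, looked at after their values were seen, was therefore 2.39 ± 0.30 in control and 0.567 ± 0.086 in adenine kidneys, and 3.79 ± 0.59 in sham and 0.462 ± 0.14 in UUO kidneys, with no overlap in either experiment (exact permutation p = 0.1 each). FPKM is per length, so Gclc RNA was more abundant than Gclm RNA in every reference kidney and less abundant in every diseased one. The subunit proteins were not measured here.

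Gss, glutathione synthetase, was 306, 611 and 421 FPKM in control and 36.1, 55.8 and 41.8 in adenine kidneys (log2 fold change -3.29, SE 0.28, adjusted p = 0.000149). Sham rats had 487, 443 and 422 and UUO rats 43.4, 56.6 and 47.5 (-3.20, SE 0.12, adjusted p = 9.83e-06). Gss thus lost a similar share of its level in both models, and its groups were far apart. Gsr, glutathione reductase, changed least of the 4. Its FPKM was 88.2, 67.8 and 75.5 in control against 62.3, 60.6 and 58.5 in adenine kidneys (-0.34, SE 0.12, adjusted p = 0.0420), a call that was lost without any one of 5 of the 6 rats, with adjusted p from 0.0773 to 0.119, with no filter (0.0530) and with samples rescaled to the same sum, where the value was -0.073 (0.612). It was 102, 137 and 107 in sham against 66.1, 68.5 and 67.5 in UUO kidneys (-0.76, SE 0.12, adjusted p = 0.00141). The summed FPKM of the 4 genes was 15.7 times lower in adenine than in control kidneys and 16.4 times lower in UUO than in sham kidneys.

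**Figure D2:**
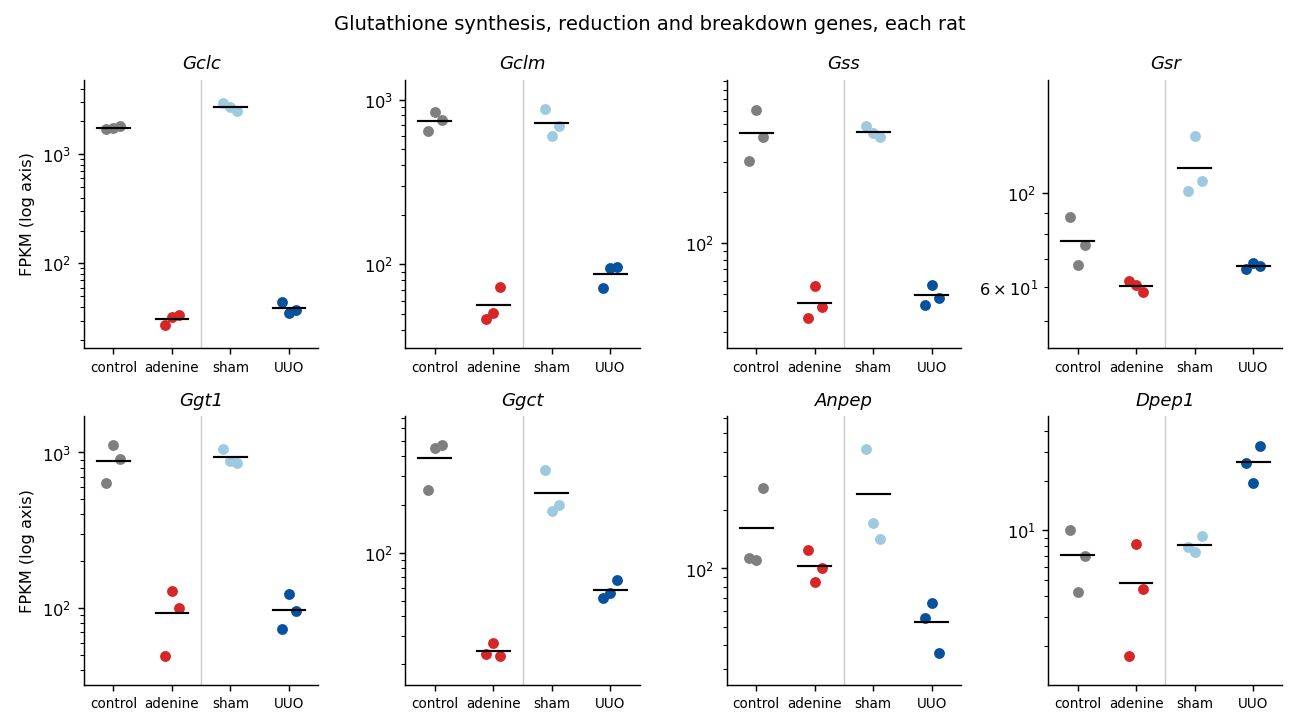
FPKM (log axis, a different range in each panel) of 4 genes of glutathione synthesis and reduction and 4 of its breakdown in each of the 12 rats, with a black line at the group mean and a grey line between the separately normalized experiments. Gclc falls from 1716 to 2934 in reference kidneys to 27.5 to 44.4 in diseased ones, and Dpep1 is highest in the UUO rats, at 19.5 to 32.6.

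Of the 7 genes of the gamma-glutamyl cycle and of extracellular breakdown, Ggt1, Ggct and Oplah fell in both models and Ggt7 rose in both. Ggt1, the brush border enzyme that starts the breakdown, was 635, 1120 and 902 FPKM in control and 49.1, 129 and 100.5 in adenine kidneys (log2 fold change -3.32, SE 0.38, adjusted p = 0.000496). Sham kidneys had 1060, 879 and 852 and UUO kidneys 74.0, 124 and 96.1 (-3.27, SE 0.20, adjusted p = 2.78e-05). The falls of 9.52 and 9.49 times were alike in size, and the lowest value within each diseased group belonged to the rat with the lowest proximal tubule marker sum of its group. Gclc was also lowest in that adenine rat, at 27.5 FPKM, but highest in that UUO rat, at 44.4. The part of those cells was not tested.

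Ggct, which releases oxoproline from gamma-glutamyl amino acids inside the cell, fell further in the adenine model. It was 247, 452 and 471 FPKM in control and 23.1, 27.2 and 22.5 in adenine kidneys (log2 fold change -3.95, SE 0.25, adjusted p = 6.21e-05). In sham kidneys it was 327, 183 and 200.02 and in UUO kidneys 51.7, 55.5 and 67.6 (-1.98, SE 0.23, adjusted p = 0.000317). Every UUO kidney had more Ggct than every adenine kidney, although these values come from separately normalized tables. Oplah, oxoprolinase, which turns that product into glutamate, had log2 fold changes of -1.92 and -1.67 (adjusted p = 0.000982 and 0.00302).

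The peptidases that finish the breakdown went different ways. Dpep1, a membrane dipeptidase that splits cysteinyl-glycine, was 10.1, 4.24 and 7.00 FPKM in control and 1.74, 8.28 and 4.38 in adenine kidneys, which overlapped (log2 fold change -0.73, SE 0.58, adjusted p = 0.308). It was 7.91, 7.40 and 9.22 in sham and 25.5, 19.5 and 32.6 in UUO kidneys, 3.17 times higher (1.63, SE 0.20, adjusted p = 0.000397). Every UUO kidney was above every other kidney for Dpep1. Anpep, aminopeptidase N of the brush border, was 113, 110.1 and 259.8 in control and 125, 84.6 and 101 in adenine kidneys (-0.54, SE 0.35, adjusted p = 0.221). Sham kidneys had 417, 172 and 142 and UUO kidneys 55.7, 66.5 and 36.7 (-2.07, SE 0.42, adjusted p = 0.00412), with no overlap between these groups.

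Ggt7, a relative of Ggt1, rose from 0.540 ± 0.21 to 1.98 ± 0.72 FPKM in the adenine model (log2 fold change 1.70, adjusted p = 0.00663) and from 0.295 ± 0.08 to 1.04 ± 0.23 in the UUO model (1.53). In the latter all 3 sham rats were under the filter of 0.5 FPKM, so Ggt7 entered that test only through the UUO rats and its call, counted above, is a description. In the adenine model control rat 1 was under the filter, so Ggt7 met it only with the adenine rats, and that call is a description too. The levels of Ggt7 are low beside those of Ggt1, which remained 93.0 FPKM on average in adenine and 98.0 in UUO kidneys. Ggt6 had at most 1.55 FPKM in every rat and passed in neither model.

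The glyoxalases use glutathione to clear methylglyoxal, a by-product of glycolysis, and only the second of the pair fell. Hagh, which frees glutathione at the end of the pathway, was 176, 258 and 187 FPKM in control and 23.2, 33.4 and 24.3 in adenine kidneys (log2 fold change -2.94, SE 0.20, adjusted p = 7.15e-05). It was 269, 265 and 246 in sham and 39.8, 42.2 and 41.8 in UUO kidneys (-2.65, SE 0.076, adjusted p = 5.53e-06). Glo1, which performs the first step, kept to 67.8 ± 1.3 FPKM in control and 70.7 ± 6.3 in adenine kidneys (0.06, SE 0.10, adjusted p = 0.647). In the UUO model it passed upward, from 59.1 ± 6.4 to 73.0 ± 5.0 (0.31, SE 0.10, adjusted p = 0.0325), but with median-of-ratios scaling it turned to -0.29 with adjusted p = 0.0616. The UUO call was also lost without sham rat 1 (adjusted p = 0.0884), sham rat 3 (0.0945), UUO rat 1 (0.0744) or UUO rat 3 (0.0982). With samples rescaled to the same sum Glo1 passed upward in the adenine model too (0.33, adjusted p = 0.0274). Glo1 was above Hagh in every diseased kidney and below it in every reference kidney.

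The soluble transferases fall into classes named by Greek letters, and 21 transferases, the membrane-bound ones included, were tested in each model. In the adenine model 12 fell, 3 rose and 6 did not pass, beside 19.9% of all genes that fell and 39.6% that rose. In the UUO model 14 fell, 4 rose and 3 did not pass, beside 14.4% and 56.1%. The FPKM of the soluble ones summed to 4205 to 5234 in control and 1152 to 1281 in adenine kidneys, 3.88 times lower, and to 4670 to 5260 in sham and 1002 to 1288 in UUO kidneys, 4.29 times lower. Most of that drop was in the alpha class, whose mean sum went from 2837 to 220 and from 3104 to 258. The share of the alpha class in the sum went from 60.4% ± 6.8 to 18.2% ± 8.5 and from 62.2% ± 0.80 to 22.0% ± 3.7 (exact permutation p = 0.1 each), without overlap. With it, the pi class went from 21.0% ± 8.5 to 51.0% ± 11 and from 19.1% ± 1.4 to 38.2% ± 2.1, and the mu class from 1.66% ± 0.48 to 10.8% ± 1.1 and from 1.86% ± 0.34 to 15.0% ± 1.7.

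**Figure D3:**
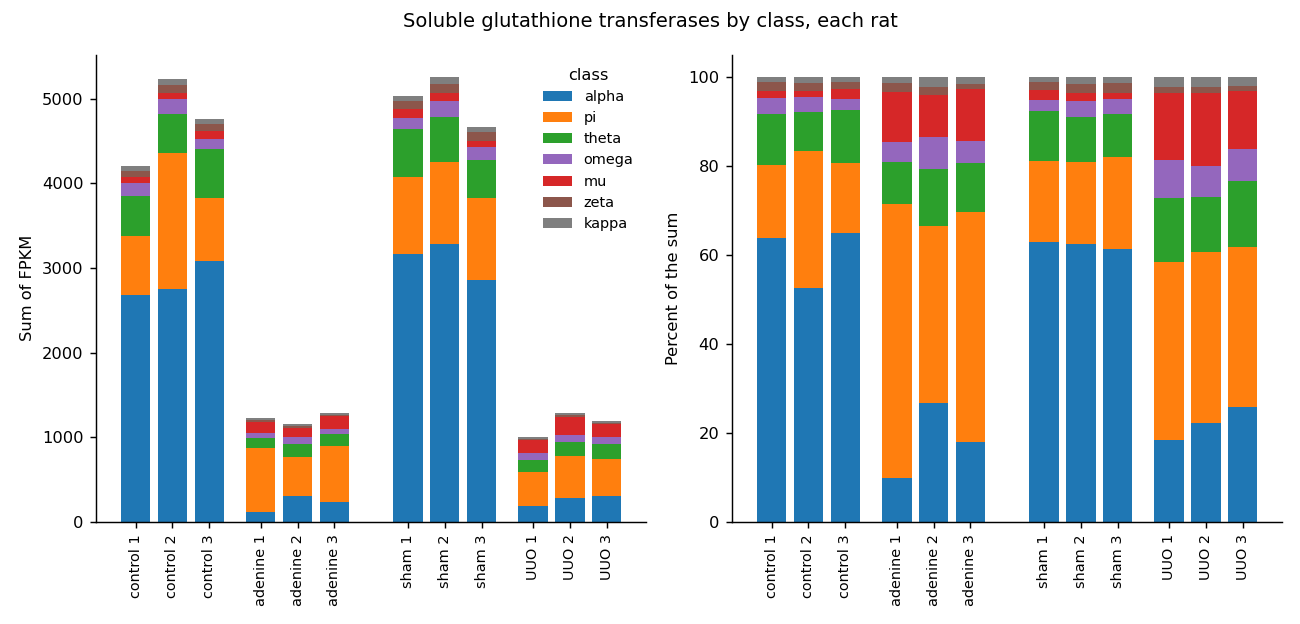
Summed FPKM of the soluble glutathione transferases in each rat by class (left, stacked bars from 0) and the percent of that sum in each class (right). The alpha class makes up 52.5% to 64.8% of the sum in reference kidneys and 9.79% to 26.7% in diseased ones, where pi is the largest class in every rat.

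Alpha transferases are abundant in rat liver and proximal tubule and also reduce lipid peroxides, and 5 of the 6 fell in both models. Gsta1, Gsta2, Gsta3 and Gsta5 share symbols, since RefSeq lists several of these names as older names of another of the 4 genes, so which gene a symbol stands for here is uncertain and the class sum is the safer value. Gsta5, the highest in the reference groups, was 940.4, 1012 and 1135 FPKM in control and 8.09, 65.2 and 40.4 in adenine kidneys (log2 fold change -5.20, SE 0.71, adjusted p = 0.000979). In the obstruction experiment it was 1204, 1191 and 1056 in sham and 17.5, 58.6 and 32.9 in UUO kidneys (-5.15, SE 0.40, adjusted p = 6.52e-05). Relative to their mean, the diseased rats differed among themselves far more than the reference rats did. Adenine rat 1, the lowest, also had the lowest proximal tubule marker sum, 488 against 1065 and 613 in adenine rats 2 and 3, and their alpha sums were 120, 308 and 231 in the same order of rats. In UUO rats 1, 2 and 3 the marker sums were 333, 641 and 422 and the alpha sums 183, 285 and 308. There rat 1 was lowest in both, but rats 2 and 3 were in opposite order. The part of those cells was not tested.

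In the adenine rats Gsta2 showed the same order as Gsta5. It was 681, 759 and 861 FPKM in control and 5.83, 44.0 and 26.8 in adenine kidneys (log2 fold change -5.32, SE 0.68, adjusted p = 0.00076). Its sham values were 867, 855 and 719.9 and its UUO values 12.2, 17.3 and 24.9 (-5.54, SE 0.25, adjusted p = 1.32e-05). Gsta1 was 731, 546 and 587 in control and 38.2, 52.0 and 29.0 in adenine kidneys (-3.99, SE 0.23, adjusted p = 4.66e-05). In this gene, in contrast, adenine rat 1 was not the lowest. Its sham values were 572, 834 and 743 and its UUO values 24.5, 50.9 and 43.1 (-4.23, SE 0.28, adjusted p = 4.06e-05). By their RefSeq names in GRCr8, Gsta2 and Gsta5 follow each other among the members on chromosome 8 and Gsta1 lies on chromosome 9. Whether these are the genes measured under those symbols is uncertain.

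The other alpha genes moved less. Gsta4, which has a high activity toward the lipid aldehyde hydroxynonenal, was 295, 403 and 470.1 FPKM in control and 43.9, 131 and 112 in adenine kidneys (log2 fold change -2.14, SE 0.42, adjusted p = 0.00462), and 489.9, 363 and 309.5 in sham and 111, 143 and 187 in UUO kidneys (-1.40, SE 0.23, adjusted p = 0.00168). Its groups stayed apart in both experiments, and in diseased kidneys it was the highest alpha gene by mean FPKM, at 95.9 and 147. Gsta3 was 22.6, 22.7 and 22.4 in control and 13.9, 7.84 and 10.6 in adenine kidneys (-1.10, SE 0.20, adjusted p = 0.00361). It was 24.6, 29.0 and 23.3 in sham and 6.66, 3.16 and 8.23 in UUO kidneys (-2.17, SE 0.34, adjusted p = 0.00117). Gsta6 had 6.99 to 11.9 FPKM in all 12 rats and passed in neither model.

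The mu class was the only soluble class with no member that fell in either model, and its summed FPKM was 1.69 times higher in adenine than in control kidneys and 1.87 times higher in UUO than in sham kidneys. Gstm1 rose from 14.4, 19.5 and 37.6 FPKM in control to 83.2, 55.2 and 95.1 in adenine kidneys (log2 fold change 1.79, SE 0.37, adjusted p = 0.00599) and from 39.6, 20.9 and 18.4 in sham to 80.3, 90.3 and 91.0 in UUO kidneys (1.81, SE 0.28, adjusted p = 0.00109). One reference rat of each experiment, control 3 and sham 1, was well above the other 2, but below every diseased rat. Gstm3, listed only in the obstruction table, rose from 4.29, 10.03 and 6.04 to 20.2, 52.7 and 18.5 (2.06, SE 0.47, adjusted p = 0.00649), with UUO rat 2 far above the others. Gstm5, listed only in the adenine table, rose from 4.58 ± 2.8 to 12 ± 3.1 (1.57, SE 0.54, adjusted p = 0.0410), a call that was lost with median-of-ratios scaling (adjusted p = 0.0759), with no filter (0.0618) and without control rat 2 (0.0543), adenine rat 2 (0.102) or adenine rat 3 (0.118). Without control rat 3 its log2 fold change was 0.94. RefSeq gives Gstm3 as an older name of Gstm5 and of Gstm7, so a symbol of one table cannot be matched with certainty to a symbol of the other.

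Gstm4 passed in the UUO model alone, from 13.3 ± 1.5 to 17.1 ± 0.35 FPKM (log2 fold change 0.36, adjusted p = 0.0217). The call was lost without sham rat 3 (adjusted p = 0.0548), UUO rat 1 (0.0516), UUO rat 2 (0.0648) or UUO rat 3 (0.0517). Under median-of-ratios scaling Gstm4 turned to -0.23 with adjusted p = 0.154. Gstm7 (29.1 ± 1.8 against 35.3 ± 9.5 in control kidneys) and Gstm2 (38.8 ± 11 against 46.4 ± 8.6 in sham kidneys) did not pass. With that scaling both passed downward, at -0.54 (adjusted p = 0.0493) and -0.88 (adjusted p = 0.0218), so whether the class holds a fall depends on the scaling. Gstm3l, Gstm6 and Gstm6l were at or under 1.27 FPKM in every rat and were not tested.

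Gstp1, the pi transferase, is widespread in epithelia and was among the 5 highest members in both reference groups. Its FPKM was 694, 1609 and 749 in control and 754, 459 and 662 in adenine kidneys, which overlapped (log2 fold change -0.62, SE 0.36, adjusted p = 0.178). The high value belonged to control rat 2, which also differed from the other controls in the marker sums given above, and no cause was tested. In the obstruction experiment it was 915, 965 and 969 in sham and 402, 497 and 429.8 in UUO kidneys, 2.14 times lower (-1.10, SE 0.11, adjusted p = 0.000179). Although it did not rise in either model, Gstp1 was the most abundant transferase of every diseased kidney, with every alpha gene below it.

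The small classes fell with the alpha class but less far. Gstt1, one of the theta transferases that act on halogenated hydrocarbons, was 79.3, 92.5 and 95.5 FPKM in control and 17.9, 21.2 and 19.5 in adenine kidneys (log2 fold change -2.18, SE 0.12, adjusted p = 3.68e-05), and 86.6, 95.3 and 81.6 in sham and 20.3, 28.2 and 26.4 in UUO kidneys (-1.82, SE 0.14, adjusted p = 6.43e-05). Gstt2 and Gstt3, on chromosome 20 like Gstt1, had log2 fold changes of -1.67 and -1.9 in the adenine and -1.94 and -1.61 in the UUO model, and all passed. Gstz1, the zeta transferase that also isomerizes maleylacetoacetate in tyrosine breakdown, was 80.5, 99.1 and 77.6 in control and 24.5, 20.1 and 13.1 in adenine kidneys (-2.19, SE 0.24, adjusted p = 0.000376). In sham kidneys it was 88.1, 102 and 103 and in UUO kidneys 13.4, 17.0 and 13.1 (-2.75, SE 0.13, adjusted p = 1.42e-05). All of these groups were separate from their reference groups. Gsto1, of the omega class, fell in both models (-1.15 and -0.88), as did the kappa enzyme Gstk1 of mitochondria and peroxisomes (-1.41 and -1.45), with adjusted p from 0.000189 to 0.00398. Gsto2 had at most 1.82 FPKM in every rat and passed in neither model, and Gstt4 was listed at the lowest value of the obstruction table in all 6 rats.

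The membrane-bound transferases split. Mgst2, which can also make the leukotriene LTC4, was 0.21, 2.64 and 0.623 FPKM in control and 29.3, 15.4 and 25.6 in adenine kidneys, 20.3 times higher (log2 fold change 4.74, SE 0.75, adjusted p = 0.00188). It was 1.04, 0.709 and 0.0001, the lowest value of that table, in sham and 17.1, 16.2 and 14.1 in UUO kidneys (5.13, SE 0.86, adjusted p = 0.0017, on the scale of FPKM + 0.1). It was at most 2.64 FPKM in every reference kidney and at least 14.1 in every diseased one. Its log2 fold change was the highest of the members in both models, and in the UUO model it ranged from 4.04 to 5.80 without one rat at a time. Control rat 1 and sham rat 3 were under the filter of 0.5 FPKM. In each experiment Mgst2 therefore met the filter only with the diseased rats, and its calls, counted above, are a description. Mgst3 went the other way, from 216 ± 28 to 80.7 ± 33 (-1.49, adjusted p = 0.00408) and from 243 ± 17 to 118 ± 15 (-1.04, adjusted p = 0.000255). Mgst1, the most abundant of the 3 in diseased kidneys, was 190 ± 11 in control and 172 ± 54 in adenine kidneys (-0.19, adjusted p = 0.474) and fell in the UUO model, from 233 ± 44 to 142 ± 5.8 (-0.70, adjusted p = 0.00359).

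Of the 6 peroxidases tested, Gpx2, Gpx7 and Gpx8 rose and Gpx4 fell in both models, and Gpx1 and Gpx3 differed between them. Gpx5 and Gpx6, known from the epididymis and the olfactory epithelium, were listed only in the obstruction table, at its lowest value in all rats. Gpx3, the secreted peroxidase of plasma, made mainly by the proximal tubule, was the highest member by mean FPKM in each of the 4 groups. It was 3114, 1288 and 1270 FPKM in control and 672, 2573 and 1149 in adenine kidneys (log2 fold change -0.45, SE 0.57, adjusted p = 0.515). The groups overlapped, and the highest control and the highest adenine rat were also the ones with the highest proximal tubule marker sums of their groups, 4060 and 1065. In sham kidneys it was 3483, 3884 and 5331 and in UUO kidneys 1941, 2156 and 1933, 2.11 times lower (-1.05, SE 0.20, adjusted p = 0.00277). In the sham group, in contrast, the rat with the highest Gpx3 had the lowest marker sum, 3704. Even so, Gpx3 still stood 23rd among all entries in adenine and 15th in UUO kidneys, where Gclc had gone to place 2268 and 2383.

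Gpx1, the widespread cytosolic selenoenzyme, was 527, 275 and 338 FPKM in control and 747, 766 and 605 in adenine kidneys, 1.86 times higher (log2 fold change 0.94, SE 0.25, adjusted p = 0.0168). Sham kidneys had 381, 656 and 569 and UUO kidneys 401, 343 and 330.0 (-0.55, SE 0.21, adjusted p = 0.0498). The sham and UUO groups overlapped, and this fall just passed: it was lost with the lower pseudocount (adjusted p = 0.0517), with samples rescaled to the same sum (0.184) and without any one of 5 of the 6 rats (0.0605 to 0.135). With median-of-ratios scaling it was larger, at -1.15 (adjusted p = 0.00413). The rise in the adenine model was lost with median-of-ratios scaling (adjusted p = 0.0630), without control rat 3 (0.0558) and without adenine rat 2 (0.0506).

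Gpx2, an epithelial selenoenzyme best known from the gut, was 4.24, 5.46 and 23.4 FPKM in control and 61.5, 132 and 115 in adenine kidneys, 9.32 times higher (log2 fold change 3.56, SE 0.65, adjusted p = 0.00339). It was 29.4, 5.78 and 4.59 in sham and 98.7, 134 and 125 in UUO kidneys, 9.0 times higher (3.67, SE 0.66, adjusted p = 0.00229). As with Gstm1, control rat 3 and sham rat 1 lay above the rest of their groups and below all diseased rats. Gpx4, which reduces lipid peroxides in membranes, was 144, 248 and 157 in control and 50.6, 79.0 and 53.5 in adenine kidneys (-1.57, SE 0.26, adjusted p = 0.0022). It was 175, 199.97 and 187 in sham and 111, 119 and 107 in UUO kidneys (-0.74, SE 0.086, adjusted p = 0.000338). Gpx4 thus fell to 3.00 times lower in the adenine and 1.67 times lower in the UUO model.

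Gpx7 and Gpx8 work in the endoplasmic reticulum, where they pass oxidizing power from hydrogen peroxide to protein folding, and both rose in both models, with larger log2 fold changes in the UUO model. Gpx7 was 3.04, 3.26 and 2.72 FPKM in control and 10.5, 11.9 and 12.5 in adenine kidneys (log2 fold change 1.92, SE 0.14, adjusted p = 8.77e-05). It was 1.73, 4.79 and 2.69 in sham and 27.4, 26.4 and 19.0 in UUO kidneys (3.04, SE 0.36, adjusted p = 0.000334). Gpx8 was 10.9, 14.4 and 11.2 in control and 22.2, 24.4 and 27.9 in adenine kidneys (1.03, SE 0.15, adjusted p = 0.00131). In sham kidneys it was 9.91, 11.6 and 8.58 and in UUO kidneys 53.1, 55.7 and 44.2 (2.34, SE 0.14, adjusted p = 3.13e-05). No group overlapped its reference for either gene, and the fibroblast and smooth muscle marker sum was also higher in UUO than in adenine kidneys, at 1079 to 2295 against 560 to 755; the part of those cells in the rise was not tested.

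**Figure D4:**
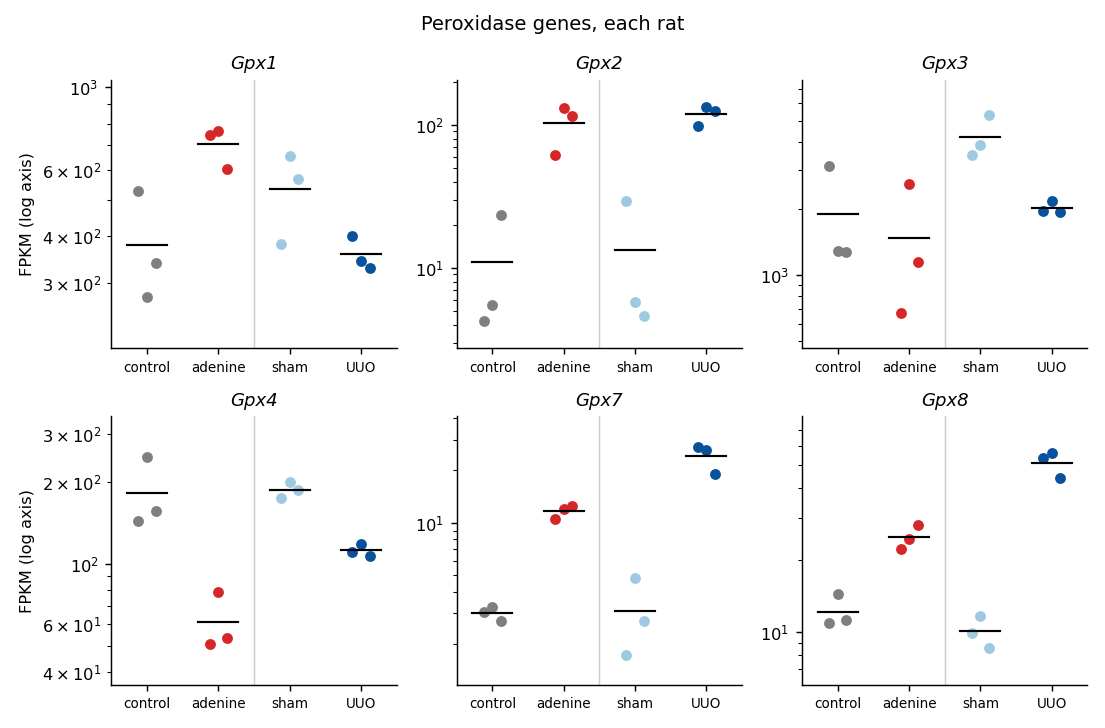
FPKM (log axis, a different range in each panel) of the 6 tested peroxidase genes in each of the 12 rats, with a black line at the group mean and a grey line between the separately normalized experiments. Gpx2, Gpx7 and Gpx8 are higher in every diseased rat than in every reference rat of the same experiment, and Gpx1 is higher in adenine but not in UUO rats.

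Of the 38 members tested in both models, 21 fell in both, 6 rose in both (Ggt7, Gpx2, Gpx7, Gpx8, Gstm1 and Mgst2) and 3 passed in neither (Ggt6, Gsta6 and Gsto2). Another 7 passed in the UUO model alone (Anpep, Dpep1, Glo1, Gpx3, Gstm4, Gstp1 and Mgst1), and Gpx1 passed in opposite directions. The models used separate reference rats, and the difference of both log2 fold changes was tested for each of the 13486 symbols in common. It passed for 6 members with the degrees of freedom of both fits added, a setting in which 27.0% of all symbols passed, and for 4 of them, Dpep1, Ggct, Gpx1 and Gpx8, with the smaller degrees of freedom, in which 14.7% passed. The second setting was added after the data were seen, because the first called too many unchanged genes in simulated data.

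Dpep1 (difference of UUO minus adenine 2.35, SE 0.61) and Ggct (1.97, SE 0.34) were higher in the UUO than in the adenine model relative to their references, with adjusted p = 0.0131 and 0.00173, or 0.0478 and 0.0235 with the smaller degrees of freedom. Gpx8 (1.31, SE 0.21, adjusted p = 0.00107, or 0.0215) likewise rose more in the UUO model. Gpx1 had the opposite sign (-1.49, SE 0.33, adjusted p = 0.00591, or 0.0344). For Gpx4 (0.83, SE 0.27) and Gpx7 (1.12, SE 0.38) the difference passed with the added degrees of freedom (adjusted p = 0.0375 and 0.0448) but not with the smaller ones (0.0821 and 0.0910). Both were also lost with median-of-ratios scaling, at 0.53 (adjusted p = 0.223) and 0.82 (adjusted p = 0.168), with no filter (0.0540 and 0.0959), and without any one of 6 (Gpx4) or 9 (Gpx7) of the 12 rats, Gpx4 reaching 0.59 and Gpx7 0.78. For Gclc the difference was -0.30 (SE 0.17, adjusted p = 0.196) and for Gss 0.09 (SE 0.30, adjusted p = 0.857), which does not show that they changed alike. Among the 7 members that passed in the UUO model alone, only Dpep1 had a difference that passed.

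A further list of 40 genes linked to glutathione (cysteine supply, conjugate handling, glutaredoxins, leukotriene synthesis, NADPH supply and regulators) had 37 in the tables. In the adenine model 20 of 35 tested fell, 8 rose and 7 did not pass, and in the UUO model 19 of 36 fell, 11 rose and 6 did not pass, with medians of -1.08 and -0.64, beside the 19.9% and 14.4% of all genes that fell and the 39.6% and 56.1% that rose. With median-of-ratios scaling 23 fell and 8 rose after adenine (median -1.37), and 25 fell and 6 rose after UUO (median -1.24). DEGs in both models were Acy1, Acy3, Kyat1, Cbs, Slc3a1, Slc25a10 and Me1 downward and Slc7a11, Glrx, Alox5ap and Ltc4s upward. The downward ones include Slc3a1, the heavy chain of the brush border cystine transporter, which was 1455, 2357 and 2239 FPKM in control and 32.6, 98.6 and 70.7 in adenine kidneys, and 2585, 1805 and 1835 in sham and 85.4, 133 and 125 in UUO kidneys (log2 fold change -5.01 and -4.18, adjusted p = 0.000138 and 1.85e-05). Slc7a11, which brings in cystine in exchange for glutamate in most other cells, was 0, 0.0265 and 0.0145 in control and 12.4, 5.35 and 11.4 in adenine kidneys (6.35 on the scale of FPKM + 0.1). In sham kidneys it was 0.0057, 0.0001 and 0.0416 and in UUO kidneys 0.608, 0.511 and 0.544 (2.51). Every control and sham rat was under the filter of 0.5 FPKM for Slc7a11, so it entered the test in both experiments only through the diseased rats, and its calls are a description. Chac1, one of the 11 that rose after UUO, was likewise under the filter in every sham rat, and its call is a description too. Slc7a9, the light chain that pairs with Slc3a1, overlapped between the groups and passed in neither model, with 32.0 to 43.4 FPKM in control and 12.3 to 51.0 in adenine kidneys (-0.45, adjusted p = 0.442) and 44.8 to 53.0 in sham and 36.6 to 48.2 in UUO kidneys (-0.22, adjusted p = 0.170).

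Enzymes that finish or follow conjugation fell as well. Acy1 and Acy3, which remove the acetyl group of acetylated amino acids and mercapturic acids, had log2 fold changes of -3.91 and -3.15 in the adenine and -3.55 and -4.30 in the UUO model. Kyat1, which cleaves cysteine conjugates, was at -2.27 and -2.07, and Cbs, which makes cystathionine for cysteine synthesis, at -3.17 and -2.91. Slc25a10, the mitochondrial dicarboxylate carrier, was at -2.28 and -2.56, and Me1, a source of NADPH, at -2.65 and -2.52. All of these had adjusted p of 0.00151 or less.

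The genes of this list that rose are of other kinds. Glrx, a glutaredoxin that removes glutathione from proteins, was 6.19, 4.93 and 3.98 FPKM in control and 48.4, 34.1 and 37.5 in adenine kidneys, and 6.14, 8.96 and 6.94 in sham and 70.5, 70.8 and 71.2 in UUO kidneys (log2 fold change 2.97 and 3.27, adjusted p = 7.15e-05 and 1.29e-05). Alox5ap, which presents arachidonic acid to lipoxygenase in leukocytes, went from 2.46 ± 0.34 to 17.4 ± 1.7 and from 2.46 ± 0.23 to 15.6 ± 2.9 (2.77 and 2.61, adjusted p = 3.96e-05 and 4.05e-05). Ltc4s, the leukotriene synthase related to Mgst2, was 0.522, 0 and 0 in control and 1.05, 1.71 and 2.90 in adenine kidneys (3.32, adjusted p = 0.010). In sham kidneys it was 0.0001, 0.0001 and 0.194 and in UUO kidneys 6.50, 4.22 and 4.32 (5.13). Every sham rat and every control rat but the first was under the filter of 0.5 FPKM for Ltc4s. It therefore met the filter in both experiments through the diseased rats, and its calls are a description. Alox5ap and Ltc4s rose beside the macrophage and neutrophil markers given above, and the part of those cells was not tested. Nfe2l2, the factor of the antioxidant response element, rose from 44.2 ± 6.5 to 88.6 ± 8.5 (1.01, adjusted p = 0.000953) and from 53.6 ± 5.5 to 81.6 ± 6.4 (0.61, adjusted p = 0.0021), but in the UUO model it was at 0.01 with median-of-ratios scaling (adjusted p = 0.946).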

How the data were processed

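Poly(A) RNA of kidney tissue was sequenced with a strand-marking kit in 12 rats. The authors removed low-quality reads, mapped the rest, assembled transcripts and deposited FPKM per gene in 2 tables, the first with control and adenine rats and the second with sham and UUO rats. The submitters' processing notes name cutadapt 1.9, HISAT2 2.0.4, StringTie 1.3.4d, edgeR and DESeq2. The genome build and annotation are not given in the sources used here. The lowest value was 0 in the first table and 0.0001 in the second, and FPKM holds no read depth, so no counting interval can be given.

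From these values, limma 3.58.1 in R 4.3.3 (moderated test with a mean-variance trend) compared each model with its reference group on log2(FPKM + 0.1) for entries with at least 0.5 FPKM in at least 3 of 6 samples (15029 and 15043 entries). P-values were adjusted by Benjamini-Hochberg over all tested entries. A fold change on this scale understates the change of low genes. "Times higher" and "times lower" are ratios of mean FPKM. The difference between models was the difference of both log2 fold changes, with its standard error from both fits. Its call rate was tested on simulated data, which led to the second setting with the smaller degrees of freedom. Sums and ratios used exact two-sided permutation tests.

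The labels name separate samples of each group, taken here as separate rats, so p-values measure the spread between these samples, and groups were taken from these labels. Values in every sample were printed for members that were DEGs in either model, that passed the test between models, that were among the 10 highest in a reference group, and for Gclc, Gclm, Gss, Gsr and Ggt1. In the further list, DEGs of both models were named; Nfe2l2, Slc7a9 and Mat2a were added after their values were seen. Members and lists were chosen with earlier results of these data known. Alternatives were a pseudocount of 1 or 0.01, no filter, a minimum of 1 FPKM, median-of-ratios scaling, FPKM rescaled to the same sum, the replicate number as a block and leaving out each rat. Of the marker lists, those for thick limb and distal tubule (2 of 4 tested fell in the adenine and 4 of 4 in the UUO model) and collecting duct (5 of 6 and 6 of 6) also fell, lymphocyte markers rose (3 of 4 and 5 of 5), injured tubule markers rose (4 of 5 and 5 of 5), podocyte markers fell for 1 of 4 in each, endothelial markers rose for 2 of 4 in each and fell for 1 of 4 in the adenine model, and of the adrenal and liver markers 1 could be tested, which rose in the UUO model. Urothelial markers rose for 5 of 5 in the UUO model and for 0 of 2 in the adenine model by limma. Every sham rat was under the filter of 0.5 FPKM for Apoa1, the adrenal and liver marker tested. The same held for Upk1b, Upk2, Upk3a and Krt5 (urothelial) and for Cd79b and Ms4a1 (lymphocyte). Upk1a met the filter only with the UUO rats, and Havcr1 (injured tubule) only with the adenine rats. These calls are therefore a description. With median-of-ratios scaling Apoa1 no longer passed (adjusted p = 0.0742).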

Additional observations from a re-analysis of the deposited data

Results flagged for a closer look

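Of the 38 members tested in both models, 6 passed the test of the difference between the models, with the degrees of freedom of both fits added. In that setting 27.0% of all symbols passed, so the count is not a trait of the members. The difference of UUO minus adenine on the log2 scale was 2.35 for Dpep1, 1.97 for Ggct, 1.31 for Gpx8, 1.12 for Gpx7, 0.83 for Gpx4 and -1.49 for Gpx1. Those of Dpep1, Ggct, Gpx8 and Gpx1 also passed with the smaller degrees of freedom, in which 14.7% of all symbols passed. Those of Gpx4 and Gpx7 did not, nor with median-of-ratios scaling. Dpep1 rose in every UUO rat above every sham rat and did not pass in the adenine model, where one rat of 3 lay above a pair of control rats. Ggct fell in both models, by 3.95 in the adenine and 1.98 in the UUO model. Gpx1 was higher in all 3 adenine rats than in any control rat, and in the UUO model 1 sham rat lay below a UUO rat. Gpx7 and Gpx8 rose and Gpx4 fell in both models. Each group held 3 rats, so no test for a rat far from the others was run. Rats named as differing from their group were noticed from their values.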

How the results depend on the processing

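Counts of members that passed stayed within 1.5 times under every alternative tried, from 27 to 29 in the adenine and from 32 to 36 in the UUO model. Without one rat at a time they were 26 to 29 (6 to 8 higher, 20 to 21 lower) in the adenine and 33 to 35 (8 to 10 higher, 25 to 26 lower) in the UUO model. DEGs then numbered 13 to 16 (2 to 3 higher, 11 to 13 lower) and 15 to 18 (4 to 5 higher, 10 to 13 lower), and members that differed between models 4 to 7. Members that were DEGs upward went from 2 to 4 in the adenine model with samples rescaled to the same sum and from 5 to 3 for UUO under median-of-ratios scaling, where those downward went from 11 to 18; both scalings shift all genes together. Changes of sign came in members near 0: with median of ratios Glo1 (-0.24) and Gsta6 (-0.055) in the adenine model and Ggt6 (-0.37), Glo1 (-0.29), Gsta6 (-0.39) and Gstm4 (-0.23) in the UUO model, and with the same sum Gstm4 (0.25), Gstm7 (0.019), Gsto2 (0.10) and Mgst1 (0.083) in the adenine model. Of these, Glo1 and Gstm4 in the UUO model had passed. Without one rat, the values ranged from -0.92 to 0.083 for Ggt6, -0.016 to 0.10 for Glo1, -0.20 to 0.15 for Gstm4 and -0.48 to 0.18 for Gsto2 in the adenine model, and from -0.064 to 0.51 for Ggt6 and -0.21 to 1.45 for Gsto2 in the UUO model. With no filter, Gpx3 (adjusted p = 0.801), Gpx1 (0.204), Glo1 (0.0837) and Gstm3 (0.0514) no longer passed in the UUO model and Gstm5 (0.0618) and Gsr (0.0530) in the adenine model, nor did the differences of Gpx4 and Gpx7 between models, and the cause was not tested. Same-numbered rats of both groups are different animals, and their deviations from the group means correlated at -0.123 to -0.049 in the adenine model, where no rat matched its own number best, and at 0.050 to 0.105 in the UUO model, where every rat did. With the replicate number as a block 27 and 34 members passed, the losses being Gsr (adjusted p = 0.0640) and Gstm5 (0.0665) in the adenine and Glo1 (0.0636) and Gpx1 (0.0810) in the UUO model. The unknown depth and 3 rats a group limit what low members such as Ggt6 and Gsto2 can show.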

Other observations

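Control rat 3 and sham rat 1 shared a pattern that was noticed after the values were seen. Each was the highest of its reference group for Gstm1 (37.6 and 39.6 FPKM), Gpx2 (23.4 and 29.4), Ggct (471 and 327), Anpep (259.8 and 417) and Mat2a, which makes the methyl donor upstream of cysteine (552 and 739, against 175 to 249.9 in the other controls and 181 to 199 in the other sham rats). For Mat2a the sham and UUO groups did not overlap, but the difference did not pass (log2 fold change -1.33, adjusted p = 0.0527). For Ggct control rat 2 was nearly as high, at 452 FPKM. The genes named were picked for this pattern, and how many would show it by chance was not worked out. The labels name nothing that these rats share, and no cause was tested.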
